A study of Mus with 8 samples.

Results

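The genes described here are 32 members of the transcriptional response to low oxygen, Hilpda itself left out. They were chosen by name, as known hypoxia-inducible genes and the oxygen-sensing genes that control them, by a rule that uses no measured value, though with earlier results of these data known. Each of the 32 was matched to a probe set annotated with that gene symbol alone, out of 30142 genes measured. Ero1l was found under its newer symbol Ero1a. Transcripts were measured on 8 arrays of interscapular brown adipose tissue, the thermogenic fat pad between the shoulder blades, 1 array per mouse. The groups were 4 C57BL/6 mice labelled HILPDA KO (KO below) and 4 wild type mice of the same background (WT below), and the labels call every mouse female. The labels do not say how the gene was deleted or in which cells, nor the age, diet or housing of the mice. Values are log2 expression values, so a difference of 1 is a doubling.

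Cells answer a fall in oxygen mainly through the hypoxia-inducible factors. The alpha subunits HIF-1α (Hif1a), HIF-2α (Epas1) and HIF-3α (Hif3a) pair with ARNT (Arnt). In the presence of oxygen the prolyl hydroxylases PHD2 (Egln1), PHD1 (Egln2) and PHD3 (Egln3) mark the alpha subunits, the von Hippel-Lindau protein (Vhl) binds the mark, and the subunits are destroyed. Much of this control acts on protein, which arrays do not measure. The target genes raise glucose uptake and glycolysis, hold back pyruvate oxidation, remove mitochondria, build vessels and fold collagen. Hilpda is itself such a target, and its product, a small lipid droplet protein, inhibits adipose triglyceride lipase.

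The arrays came as 2 sets with different value distributions. Replicates 1 and 2 of both genotypes (set 1) had a median over all genes of 3.93 to 3.99, and replicates 3 and 4 (set 2) one of 4.93 to 4.98, so KO and WT were compared within each set and levels of the sets were not tested against each other. A signal floor was set on each array at the value that 95% of 1083 olfactory receptor genes stayed under, since these are mostly silent in fat. It lay at 3.81 to 3.97 in set 1 and 4.75 to 4.87 in set 2. The brown adipocyte markers, Ucp1 among them, were above this floor on every array (12 of 12). Transcripts of the Y chromosome were present on all 8 arrays of both genotypes (Uty at 9.31 to 10.93, Eif2s3y at 8.53 to 11.01) and Xist was low (3.49 to 4.10), against the label of female mice.

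Hilpda read 4.45 and 4.37 in KO replicates 1 and 2, and 4.37 and 4.28 in WT replicates 1 and 2. In set 2 it read 5.60 and 5.51 in KO replicates 3 and 4, and 6.00 and 5.92 in WT replicates 3 and 4. The genotypes therefore overlapped in set 1, and both KO arrays lay below both WT arrays in set 2. The difference, KO minus WT, was 0.09 in set 1 and -0.40 in set 2 (SE 0.10 for each; limma adjusted p = 0.972 and 0.144). The labelled deletion is thus not seen as a lower Hilpda signal in set 1. The signal floor there was 3.97 and 3.87 on the KO arrays and 3.87 and 3.81 on the WT arrays, so Hilpda had limited room to fall. No label says which part of the gene was removed, so the probe set may or may not cover it. KO below means the arrays labelled so.

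No member passed the test of KO against WT at an adjusted p under 0.05, in either set, in the mean of the sets or for the change of the difference from set 1 to set 2. Among all 30142 genes limma called 0 in set 1 (0.00%), 1 in set 2 (0.00332%), 0 in the mean of the sets (0.00%) and 142 in the difference between the sets (0.471%). Of those 142, 109 had a higher KO minus WT value in set 2 and 33 a lower one, and after quantile normalization the 153 genes called split into 80 and 73. The lowest adjusted p of a member was 0.394 in set 1 (Ero1a), 0.114 in set 2 (Egln1), 0.645 in the mean of the sets (Ero1a) and 0.118 for the difference between the sets (Egln1). At an unadjusted limma p under 0.05 the members numbered 3 in set 1, 5 in set 2, 5 in the mean of the sets and 7 in the difference between them, which is 9.38%, 15.6%, 15.6% and 21.9% of the 32. Over all genes the same rule gave 7.76%, 15.1%, 7.14% and 15.0%. In bulk tissue fewer cells of a type and less RNA per cell cannot be told apart.

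The median difference of the 32 members was 0.01 in set 1, 0.03 in set 2 and 0.02 in the mean of the sets, beside 0.00, 0.02 and 0.01 over all genes. In set 1, 16 members were above 0 and 16 below, in set 2, 20 and 12, and in the mean of the sets 17 and 15, where 50.9%, 53.6% and 52.5% of all genes were above 0. A size of 0.5 or more was reached by 2 members in set 1 (Egln3 and Ero1a), by 6 in set 2 (Bnip3, Egln1, Epas1, P4ha1, Pfkfb3 and Slc2a1) and by 1 in the mean of the sets (Pfkfb3), beside 4.85%, 9.59% and 1.87% of all genes. Both KO values lay above or below both WT values, called no overlap below, in 12 members in set 1 (6 higher, 6 lower in KO) and in 14 in set 2 (10 higher, 4 lower). These are 37.5% and 43.8% of the members, where 38.4% and 43.1% of all genes showed no overlap. By direction, 18.9% of all genes were higher and 19.5% lower in KO without overlap in set 1, and 24.0% and 19.1% in set 2, or 20.8% and 23.6% in set 2 after quantile normalization. After that step 11 and 12 members showed no overlap in the sets. Of the 26 members above the signal floor on 4 or more arrays, 10 and 12 showed no overlap, 38.5% and 46.2%, where 41.9% and 51.4% of all genes above it did.

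In the deposited values a single member, Kdm3a, had KO above WT without overlap in both sets, and none had KO below WT in both. Of all genes 2.82% and 2.46% did so. Another 6 members parted the genotypes in opposite directions. Egln1, Hif1a and Stc2 were higher in KO in set 1 and lower in set 2 (5.31% of all genes), and Slc2a1, Bnip3l and Vhl were lower in set 1 and higher in set 2 (7.45%). Of these Stc2 was below the signal floor on every array, and Vhl overlapped in set 2 after quantile normalization or median centring. After quantile normalization Ero1a had KO below WT without overlap in both sets.

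**Figure D1:**
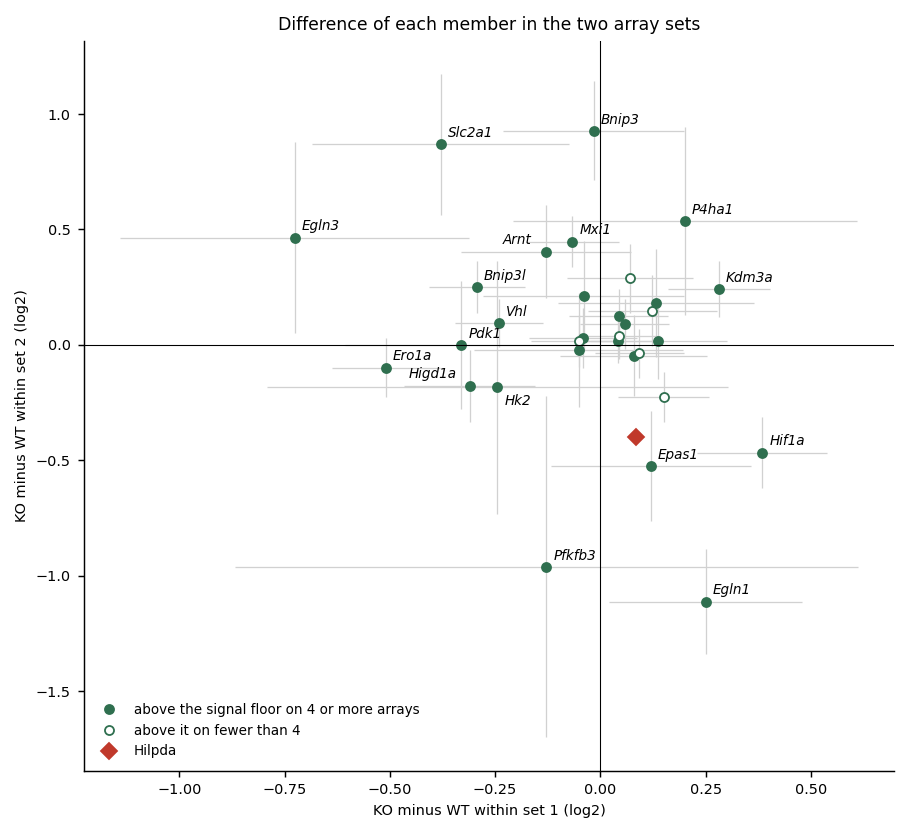
KO minus WT in set 1 (horizontal) and in set 2 (vertical), in log2 units, for the 32 members (filled circles: above the signal floor on 4 or more arrays; open circles: on fewer) and for Hilpda (diamond). Grey bars are limma's standard errors; Egln1 and Hif1a lie to the lower right, Slc2a1 and Egln3 to the upper left, and Kdm3a is above 0 in both sets by 0.28 and 0.24.

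The oxygen-sensing genes held the member with the lowest p of set 2. Egln1, which encodes PHD2, the main oxygen-dependent hydroxylase of HIF-1α, read 12.44 and 12.51 in KO and 12.33 and 12.12 in WT in set 1. In set 2 it read 12.69 and 13.29 in KO and 14.32 and 13.87 in WT. The KO arrays were therefore slightly higher in set 1 and clearly lower in set 2, with no overlap in either. The difference was 0.25 in set 1 (SE 0.23, limma adjusted p = 0.938) and -1.11 in set 2 (SE 0.23, limma unadjusted p = 0.00194, adjusted p = 0.114). Its change between the sets, -1.36, had an unadjusted p of 0.00417 and an adjusted p of 0.118 in limma.

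Hif1a itself read 10.26 and 10.10 in KO and 9.86 and 9.73 in WT in set 1, and 11.14 and 10.73 in KO and 11.44 and 11.36 in WT in set 2. The pattern was that of Egln1, with KO higher in set 1 and lower in set 2. The differences were 0.38 and -0.47 (SE 0.15; limma adjusted p = 0.624 and 0.227), the latter -0.26 without KO replicate 4. The values of Epas1, whose product HIF-2α is abundant in vessels and fat, were 11.83 and 12.32 in KO and 11.64 and 12.27 in WT in set 1, where the groups overlapped. In set 2 they were 13.24 and 13.40 in KO and 13.84 and 13.85 in WT, a difference of -0.52 (SE 0.24, limma adjusted p = 0.363) with both KO arrays lower.

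Arnt, the shared partner of the alpha subunits, went the other way in set 2. Its values in that set were 10.53 and 10.64 in KO and 10.11 and 10.25 in WT, a difference of 0.40 (SE 0.20, limma adjusted p = 0.408). In set 1 it read 8.46 and 8.81 in KO and 8.49 and 9.04 in WT, with overlap. The 3 members that build the HIF dimers and were above the floor were thus not displaced together in set 2: Hif1a and Epas1 were lower and Arnt higher in KO. Hif3a, the third alpha subunit, was above the floor on 2 of 8 arrays and read 3.74 to 3.87 in set 1 and 4.59 to 4.79 in set 2, so no level is read from it.

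The other hydroxylases did not follow Egln1. Egln3, a HIF target that in turn marks HIF-α, read 7.26 and 7.36 in KO against 7.94 and 8.13 in WT in set 1, both KO arrays lower and a difference of -0.73 (SE 0.41, limma adjusted p = 0.800). In set 2 it read 8.77 and 10.13 in KO against 9.28 and 8.68 in WT, where KO replicate 4 stood above the other 3 arrays and KO replicate 3 between the WT arrays. The set 2 difference of 0.46 was -0.21 without KO replicate 4. Egln2 differed by 0.04 and 0.13 in the sets (SE 0.12), with values of 6.94 and 7.17 in KO and 6.98 and 7.05 in WT in set 1, and 8.09 and 8.26 in KO and 8.06 and 8.03 in WT in set 2. Vhl, the recognition subunit of the ubiquitin ligase, read 5.38 and 5.42 in KO and 5.57 and 5.72 in WT in set 1. There both KO arrays were lower, with a difference of -0.24 (SE 0.10, limma adjusted p = 0.655), and in set 2 the values were 6.93 and 6.89 in KO and 6.75 and 6.88 in WT, 0.01 apart at the nearest.

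**Figure D2:**
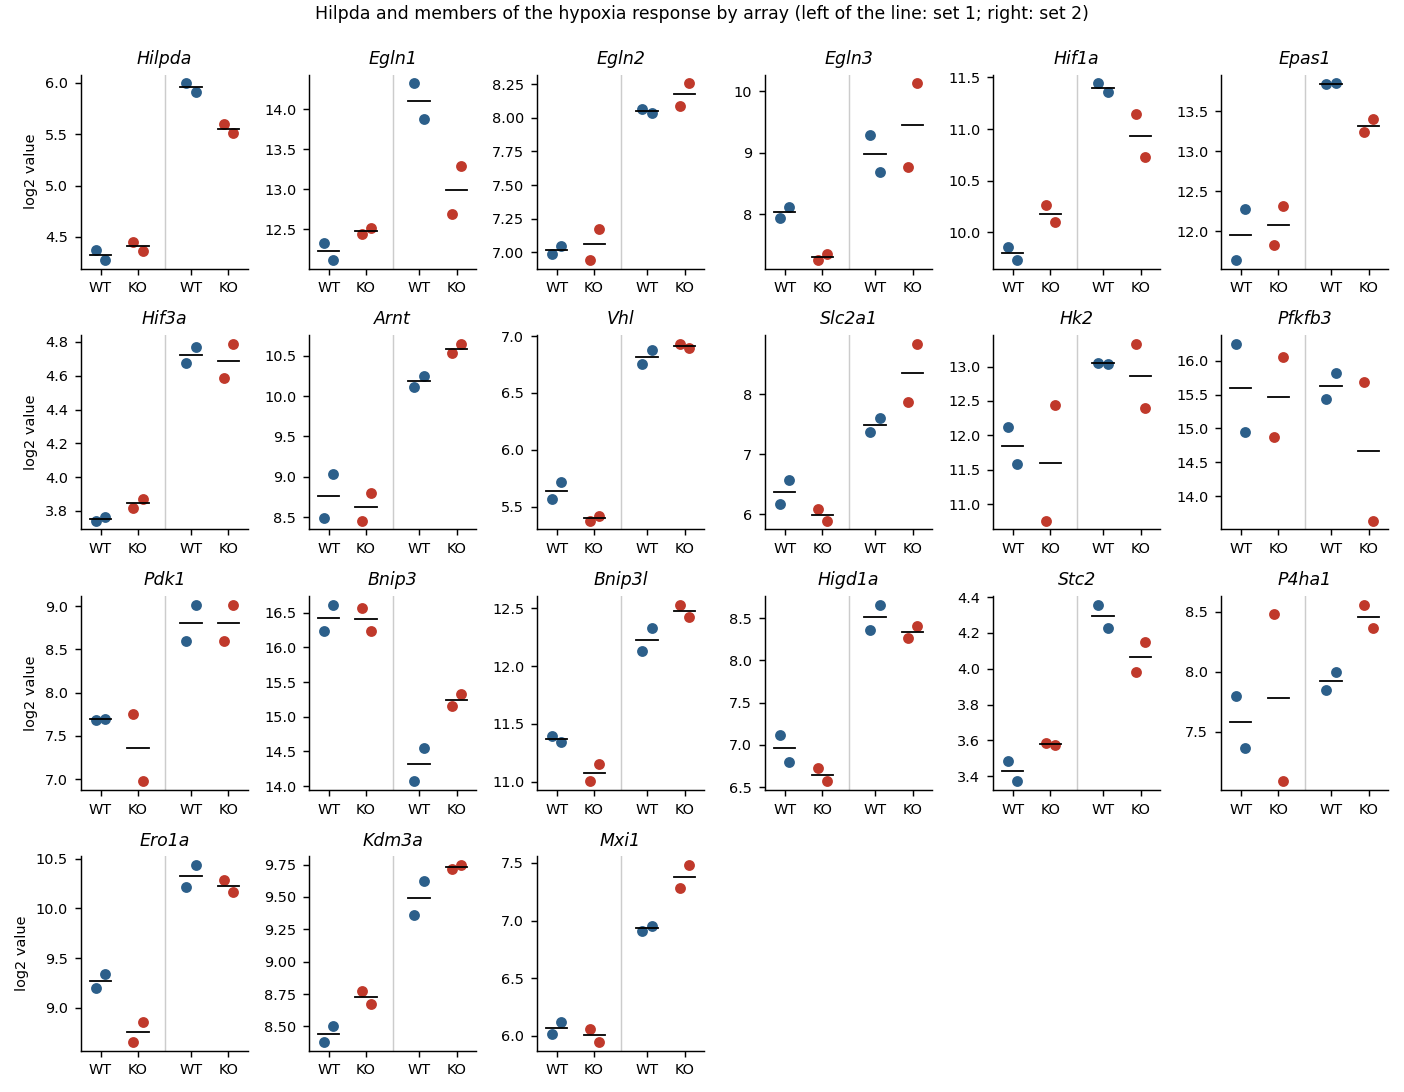
Log2 values (vertical axes, a separate scale for each gene) of Hilpda and of 20 members on each array, blue for WT and red for KO, with set 1 left and set 2 right of the grey line; short black lines are means of 2 arrays. Egln1, Hif1a and Epas1 are lower and Slc2a1, Bnip3, Mxi1 and Arnt higher in both KO arrays of set 2, and Pfkfb3, Hk2 and P4ha1 differ widely between arrays of one genotype.

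Among genes of glucose use, Slc2a1, the glucose transporter GLUT1, was the 1 member without overlap in both sets. It read 6.08 and 5.89 in KO and 6.17 and 6.57 in WT in set 1, and 7.87 and 8.84 in KO and 7.37 and 7.61 in WT in set 2. KO was lower in set 1 and higher in set 2, with no overlap in either, and the 2 KO arrays of set 2 stood 0.96 apart. The differences were -0.38 and 0.87 (SE 0.31; limma adjusted p = 0.917 and 0.252). That of set 2 was 0.39 without KO replicate 4 and 1.35 without KO replicate 3, and that of set 1 was -0.18 without WT replicate 2 and -0.58 without WT replicate 1.

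The enzymes that start glycolysis varied more within a genotype than between genotypes. Hk2, hexokinase 2, which traps glucose in the cell, read 10.76 and 12.45 in KO and 12.12 and 11.58 in WT in set 1, and 13.33 and 12.40 in KO and 13.06 and 13.04 in WT in set 2. Pfkfb3, which makes the activator of phosphofructokinase, read 14.88 and 16.06 in KO and 16.25 and 14.95 in WT in set 1, and 15.68 and 13.64 in KO and 15.44 and 15.81 in WT in set 2. In set 1 both genes were low in KO replicate 1 and WT replicate 2 and high in the other arrays, and in set 2 both were lowest in KO replicate 4. The differences in set 2 were -0.18 for Hk2 (SE 0.55) and -0.96 for Pfkfb3 (SE 0.74), and without KO replicate 4 that of Pfkfb3 was 0.06. In set 1 the mean of 16 skeletal muscle markers had the same array order as Hk2, 6.72, 8.12, 8.65 and 9.67 in KO replicate 1, WT replicate 2, WT replicate 1 and KO replicate 2, but not in set 2, where it was 6.17 in KO replicate 3 and 11.10 in KO replicate 4. The part of muscle in these values was not tested.

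Pdk1, the kinase that switches off pyruvate dehydrogenase, read 7.75 and 6.97 in KO and 7.69 and 7.70 in WT in set 1. In set 2 it read 8.60 and 9.02 in KO and 8.60 and 9.02 in WT. One array, KO replicate 2, made the whole set 1 difference of -0.33 (SE 0.28), which was 0.06 without it. The other members of this role stayed within 0.29 of 0 in both sets. Pfkp, the platelet-type phosphofructokinase, was at 8.33 to 8.61 in set 1 and 9.41 to 9.84 in set 2, and Pfkfb4 at 4.21 to 4.50 and 5.54 to 5.70. The adenylate kinase Ak4 and the lactate exporter Slc16a3 were above the signal floor on only 1 and 2 arrays.

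Bnip3, a mitochondrial receptor for mitophagy and a classical HIF target, had the lowest unadjusted p among members higher in KO of set 2. In set 1 it read 16.57 and 16.24 in KO and 16.23 and 16.62 in WT, with full overlap, and in set 2 it read 15.15 and 15.33 in KO and 14.07 and 14.56 in WT. Both KO arrays of set 2 were higher. The difference was -0.02 in set 1 (SE 0.21, limma adjusted p = 1.0) and 0.93 in set 2 (SE 0.21, limma unadjusted p = 0.00365, adjusted p = 0.131). In the mean of the sets it was 0.46 (SE 0.15, limma unadjusted p = 0.0204, adjusted p = 0.669). Bnip3 was 1 of 2 members, with Pfkfb3, whose mean was lower in set 2 than in set 1, whereas 96.3% of all genes were higher in set 2. The highest value on an array was also lower in set 2, at 19.68 to 19.77 against 19.93. Shifts between the sets were not tested.

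Bnip3l, its relative and also a mitophagy receptor, read 11.00 and 11.15 in KO and 11.40 and 11.34 in WT in set 1, and 12.53 and 12.43 in KO and 12.13 and 12.33 in WT in set 2. It was lower in KO in set 1 and higher in set 2, by -0.29 and 0.25 (SE 0.11; limma adjusted p = 0.596 and 0.360). Its probe set also carries the identifier of the pseudogene Bnip3l-ps, so the signal may be shared. Higd1a, a respiratory chain assembly factor induced by hypoxia, read 6.72 and 6.57 in KO and 7.11 and 6.80 in WT in set 1, and 8.26 and 8.40 in KO and 8.36 and 8.66 in WT in set 2. It was lower in KO on average in both sets, with differences of -0.31 and -0.18 (SE 0.16) and overlap in set 2. Fam162a, a mitochondrial protein linked to hypoxic cell death, ranged from 9.65 to 10.19 in set 1 and from 10.69 to 11.33 in set 2, with overlap in both.

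**Figure D3:**
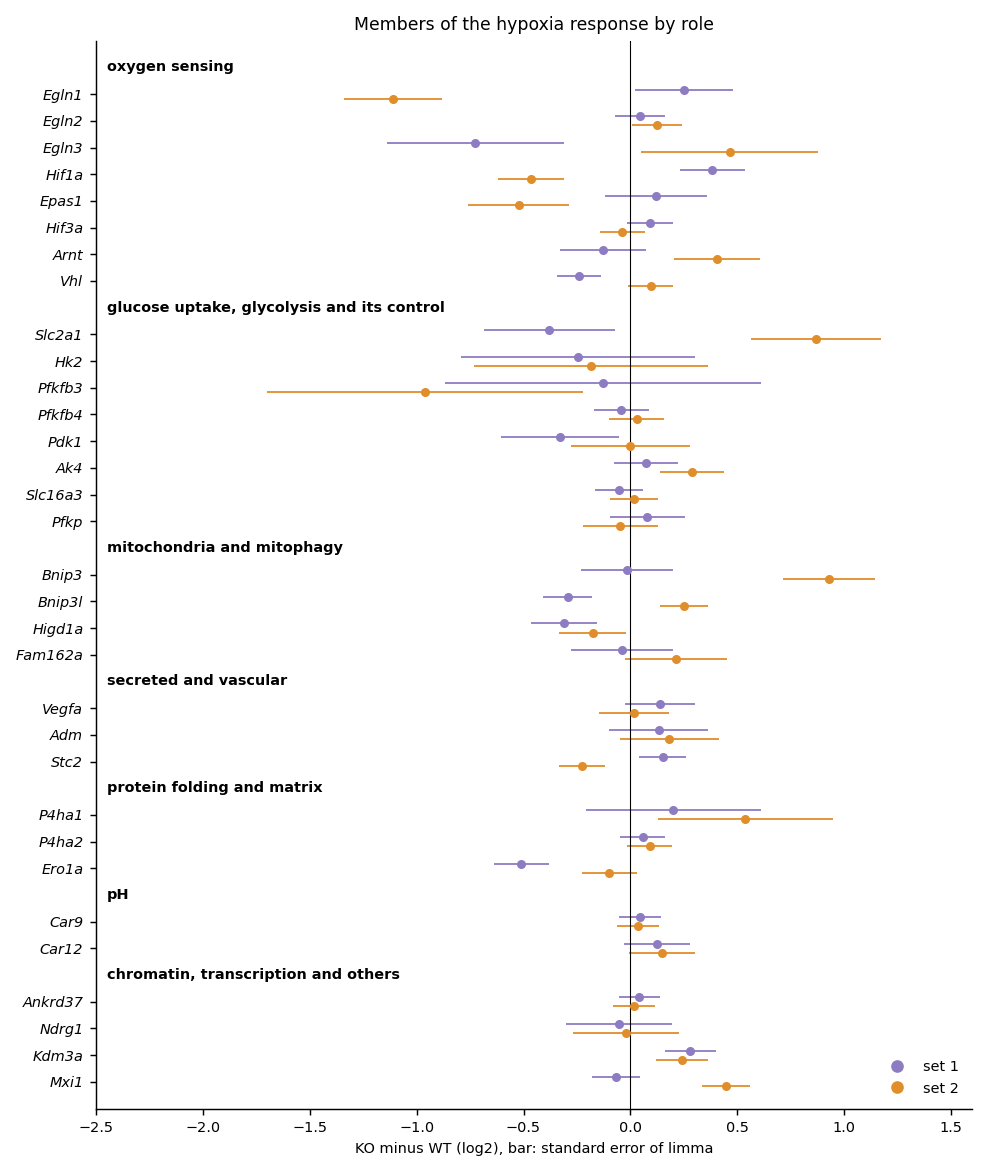
KO minus WT (horizontal axis, log2 units) of the 32 members, grouped by role, in set 1 (violet) and set 2 (orange); bars are limma's standard errors. The set 2 points reach from -1.11 (Egln1) to 0.93 (Bnip3), and Kdm3a is the member whose 2 points both lie above 0 without overlap of the genotypes.

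The secreted and vascular members were close in the 2 genotypes. Vegfa, the main growth factor of vessels, read 12.48 and 12.80 in KO and 12.30 and 12.70 in WT in set 1, and 13.74 and 13.79 in KO and 13.76 and 13.73 in WT in set 2. The 4 arrays of set 2 lay between 13.73 and 13.79, and the difference was 0.14 in set 1 and 0.02 in set 2 (SE 0.16). Adm, the vessel-widening peptide adrenomedullin, differed by 0.13 and 0.18 (SE 0.23) with overlap in both sets. Stc2, a secreted glycoprotein, was below the signal floor on all arrays, as were the carbonic anhydrases Car9 and Car12, which acidify the space outside hypoxic cells. The mean of 11 endothelial markers was 7.73 to 8.20 in set 1, and in set 2 it was 9.66 and 9.75 in KO against 9.31 and 9.55 in WT. These markers went both ways in set 2, 7 higher and 4 lower in KO. Their median difference there was 0.12, and the largest was 2.13 in Cldn5.

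Ero1a and the collagen hydroxylases act in the endoplasmic reticulum. Ero1a, which reoxidises the enzyme that forms disulfide bonds, had the lowest p of the members in set 1 and in the mean of the sets. It read 8.66 and 8.86 in KO and 9.20 and 9.34 in WT in set 1, both KO arrays lower, and 10.29 and 10.16 in KO and 10.22 and 10.43 in WT in set 2, where they overlapped. The difference was -0.51 in set 1 (SE 0.13, limma unadjusted p = 0.00577, adjusted p = 0.394), -0.10 in set 2 and -0.30 in the mean of the sets (SE 0.09, limma unadjusted p = 0.0130, adjusted p = 0.645). After quantile normalization the genotypes did not overlap in set 2 either, with both KO arrays lower. In set 1 the 11 liver markers averaged 12.98 and 9.55 in KO against 9.17 and 7.01 in WT, while in set 2 they were at 5.25 to 5.50 on all arrays. Whether liver RNA bears on Ero1a or any other set 1 value was not tested.

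P4ha1, a catalytic subunit of collagen prolyl hydroxylase, read 8.48 and 7.09 in KO and 7.80 and 7.37 in WT in set 1, and 8.56 and 8.36 in KO and 7.84 and 8.0 in WT in set 2. The KO arrays of set 1 were the highest and the lowest of the 4, and in set 2 both KO arrays were higher. The set 2 difference was 0.54 (SE 0.41, limma adjusted p = 0.613), with a standard error that carries the wide gap of set 1. P4ha2, its paralog, differed by 0.06 and 0.09 (SE 0.11).

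Kdm3a, a histone demethylase induced by HIF-1 and known to act on metabolic genes in fat, was the 1 member with KO above WT without overlap in both sets. It read 8.78 and 8.67 in KO and 8.38 and 8.51 in WT in set 1, and 9.72 and 9.74 in KO and 9.36 and 9.62 in WT in set 2. The closest arrays were KO replicate 2 and WT replicate 2 in set 1, and KO replicate 3 and WT replicate 4 in set 2. The difference was 0.28 in set 1, 0.24 in set 2 (SE 0.12 for each) and 0.26 in their mean (SE 0.09, limma unadjusted p = 0.0187, adjusted p = 0.669). Over the alternative settings this mean ran from 0.20 to 0.33, and the set 2 difference from 0.11 without WT replicate 3 to 0.37 without WT replicate 4.

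Mxi1, an antagonist of MYC, read 6.06 and 5.95 in KO and 6.02 and 6.12 in WT in set 1, and 7.28 and 7.48 in KO and 6.91 and 6.95 in WT in set 2. It overlapped in set 1 and was higher in both KO arrays of set 2, by 0.45 (SE 0.11, limma unadjusted p = 0.00513, adjusted p = 0.144). Ndrg1, a stress-response gene widely used as a hypoxia marker, ranged from 6.44 to 7.19 in set 1 and from 8.36 to 8.64 in set 2, with differences of -0.05 and -0.02 (SE 0.25). Ankrd37, a small ankyrin protein, was above the signal floor only on the 4 arrays of set 1, at 3.98 to 4.10.

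Set beside Hilpda, whose values in set 2 rank KO replicate 4 below KO replicate 3, WT replicate 4 and WT replicate 3, 1 member had the same order of the 4 arrays, Hif1a. The reverse order was found in 6 members, Slc2a1, Bnip3, Kdm3a, Arnt, Mxi1 and Ak4, the last above the signal floor on only 1 array. Of all other genes 5.99% had the same and 7.30% the reverse order in set 2, and the member counts were not tested against these shares. In set 1, where Hilpda differed by 0.18 from the lowest to the highest array, Car12 had the same and Arnt the reverse order, as did 5.31% and 3.49% of all other genes. Car12 was below the signal floor on every array. Since 4 arrays a set are too few for a correlation and the sets are separate clusters, none was computed.

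In both sets the 2 arrays of one genotype were often further apart than the genotypes. The wider of the 2 within-genotype gaps exceeded the difference between the genotypes in 23 of 32 members in set 1 and in 23 in set 2, or 71.9%, beside 73.8% and 69.5% of all genes. The widest were those of Pfkfb3 in KO of set 2 (2.04), Hk2 and P4ha1 in KO of set 1 (1.69 and 1.39) and Egln3 in KO of set 2 (1.36). For Egln1 and Bnip3 in set 2 the difference between genotypes, 1.11 and 0.93 in size, was larger than the wider gap, 0.60 and 0.49.

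The means of some marker lists also parted the genotypes. The mean of 12 brown adipocyte markers was 12.96 and 13.09 in KO and 13.45 and 13.47 in WT in set 1. There Ero1a and Bnip3l were lower in KO, but the brown adipocyte markers went both ways. Their median difference was -0.06, with 5 higher and 7 lower in KO, from -4.63 (Dio2) to 1.45 (Otop1). Their mean in set 2 was 14.61 and 13.96 in KO against 14.29 and 14.38 in WT. KO replicate 3 was the highest there and KO replicate 4 the lowest. In set 2 the mean of 7 general adipocyte markers was 16.06 and 15.50 in KO and 16.43 and 16.34 in WT, and that of 12 clock genes 8.76 and 9.10 in KO and 9.16 and 9.23 in WT. The 11 immediate early genes averaged 8.26 and 8.01 in KO and 6.33 and 7.70 in WT, and that of 10 macrophage markers 7.56 and 7.75 against 7.34 and 7.58. The means of the general adipocyte and clock lists were thus lower and that of the immediate early list higher in both KO arrays of set 2. There Egln1, Hif1a and Epas1 were lower and Slc2a1 and Bnip3 higher. The clock genes went both ways in set 2, 5 higher and 7 lower in KO, from -2.59 (Dbp) to 1.69 (Arntl). All 7 general adipocyte markers were lower there, and 9 immediate early genes were higher and 2 lower. The clock and immediate early lists had the opposite directions in set 1. Both KO arrays of set 1 had the higher clock mean and the lower immediate early mean, while the general adipocyte means overlapped. By gene, 9 clock genes were higher and 3 lower in KO of set 1. Of the immediate early genes 1 was higher and 10 lower, and of the general adipocyte markers 3 and 4. The part of these lists in the member differences was not tested. Dbp, a clock output factor, was the 1 gene called in set 2, at 7.39 and 7.26 in KO and 10.04 and 9.79 in WT (difference -2.59, limma adjusted p = 0.0255). Its call was lost after quantile normalization, with the replicate block, with set 2 fitted alone and without any 1 of KO replicate 4 and WT replicates 1, 2 and 3.

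**Figure D4:**
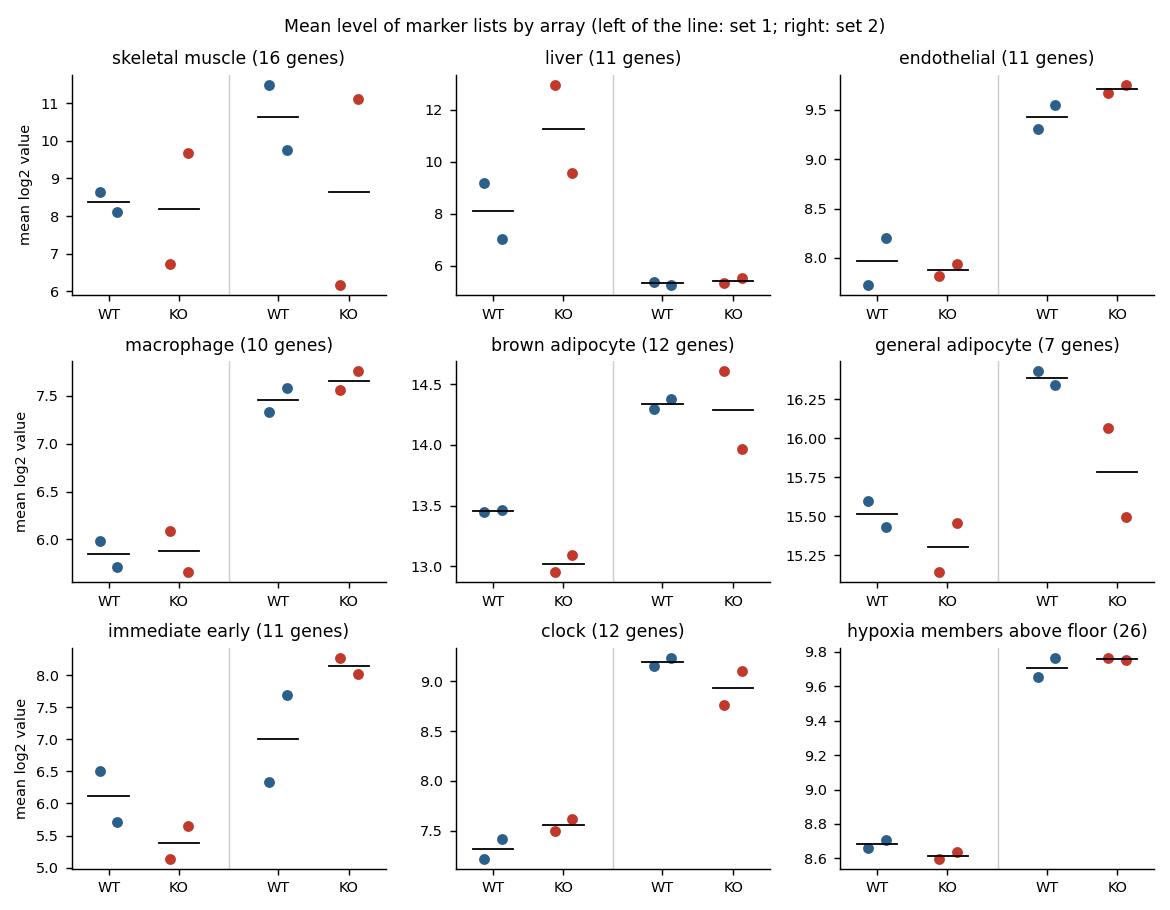
Mean log2 value (vertical axes) of marker lists on each array, blue for WT and red for KO, set 1 left and set 2 right of the grey line; short black lines are means of 2 arrays. Liver markers are high only in set 1, skeletal muscle markers vary within genotypes, and the 26 hypoxia members above the floor average 8.60 to 8.71 in set 1 and 9.65 to 9.76 in set 2.

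Of a wider list of other HIF targets, 56 of 60 could be matched, and none passed in the sets or in their mean, where 8, 17 and 5 (14.3%, 30.4% and 8.93%) had an unadjusted limma p under 0.05, beside 7.76%, 15.1% and 7.14% of all genes. Their median difference was 0.02 in set 1 and -0.01 in set 2, and 25 (44.6%) and 29 (51.8%) showed no overlap, beside 38.4% and 43.1% of all genes. In 8 of them (14.3%) KO was higher in set 1 and lower in set 2 without overlap, and in 5 (8.93%) the reverse, beside 5.31% and 7.45% of all genes. No set test was made of these shares. Ppp1r3c, a glycogen-targeting phosphatase subunit, read 10.35 and 11.15 in KO and 9.42 and 8.83 in WT in set 1, and 10.19 and 10.18 in KO and 12.43 and 12.43 in WT in set 2. Wsb1, a ubiquitin ligase subunit that can mark VHL, read 6.29 and 6.45 in KO and 7.06 and 6.98 in WT in set 1, and 8.97 and 8.81 in KO and 7.48 and 7.67 in WT in set 2. These 2 passed when the difference was compared between the sets (-3.86 and 1.96; limma adjusted p = 0.0359 for each), and each lost that call without any 1 of the 8 arrays.

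The transcriptional repressors Bhlhe40 and Bhlhe41 were the HIF targets furthest below WT in set 2 beside Ppp1r3c, with differences of -2.65 and -1.41 (limma adjusted p = 0.189 and 0.0784), and stood at 1.63 and 0.16 in set 1. Selenbp1, Igfbp3 and Cp differed by 1.34, 1.53 and 1.45 in set 2 and by -1.29, -0.40 and -0.33 in set 1. Ccng2, a cyclin of arrested cells, was the 1 gene of the list with KO above WT without overlap in both sets. It read 8.26 and 7.69 in KO and 6.96 and 7.26 in WT in set 1, and 8.69 and 9.29 in KO and 8.21 and 8.39 in WT in set 2, a mean difference of 0.78 (SE 0.18, limma unadjusted p = 0.00400, adjusted p = 0.645). The stress gene Ddit4 differed by 3.05 and 1.13 and the transferrin receptor gene Tfrc by -0.35 and -1.02. Of the glycolytic genes, Aldoa and Gapdh held 1 value on all 4 arrays of set 1, and Ldha and Pgk1 repeated a value on 2 or more. So did 306 of all genes, whereas no member did. Pfkl and Hk1 were higher in KO without overlap in set 1, as were 18.9% of all genes. They differed by 0.74 and 0.27 there (limma adjusted p = 0.857 and 0.724) and by -0.41 and -0.38 in set 2. Pkm, Pgam1 and Tpi1 overlapped in set 1.

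Of 14 further genes of oxygen sensing 11 were matched and none passed. The asparaginyl hydroxylase gene Hif1an differed by -0.21 and -0.01. Cul2, the scaffold of the VHL ligase, read 9.69 and 9.70 in KO and 9.87 and 9.82 in WT in set 1, and 11.00 and 10.95 in KO and 10.39 and 10.57 in WT in set 2. It thus had the directions of Vhl, lower in set 1 and higher in set 2. The Cul2 differences were -0.14 and 0.49 (SE 0.10; limma adjusted p = 0.873 and 0.113), and their change between the sets was 0.63 (limma adjusted p = 0.106). In the mean of the sets the difference was 0.17 (limma unadjusted p = 0.0433, adjusted p = 0.693). Arntl, a clock factor of the ARNT family, differed by 0.02 in set 1 and 1.69 in set 2 (limma adjusted p = 0.113).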

How the data were processed

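The authors deposited log2 expression values of 8 arrays (1 per mouse), summarised by RMA in Affymetrix Expression Console, per the submitters' processing notes. No source used here gives software versions, genome build or annotation, and the array type is not settled. That the log base is 2 was read from the values. Of 72688 probe sets, 30604 carried 1 gene symbol in the platform annotation and 2146 several, which were left unnamed. Where a gene had several probe sets (355 genes), the one with the highest mean was used, leaving 30142 genes.

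limma 3.58.1 in R 4.3.3 was fitted to all genes, with a mean for each genotype in each set of arrays, and p-values were adjusted by Benjamini-Hochberg over all 30142 genes (threshold 0.05). The fit was tested on simulated data. The labels call the samples biological replicates only by number, so p-values measure the spread between these arrays. Precision is limited by 2 arrays per genotype and set.

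The members and lists were chosen with earlier results of these data known. Values of all 8 arrays were to be given for the oxygen-sensing genes, for members without overlap in both sets, and for the 10 members above the floor with the largest differences in each comparison. Other pathway genes were to be named at a difference of 1 or more in a set. Ccng2, Hif1an, Cul2, Dbp, Otop1, Dio2, Nr4a1, Cldn5 and the glycolytic genes of the wider list were named after their values were seen. Alternatives were quantile normalization, median centring, a trend in the variance, the filter at the signal floor, the mean of probe sets, no set term, an additive set term, a replicate block, each set alone, and each array left out.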

Additional observations from a re-analysis of the deposited data

Results flagged for a closer look

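The difference between KO and WT itself differed between the sets, by a test of that change, in 142 genes, of which 4 were in the pathway and marker lists used here and none was a member. The change was -3.86 for Ppp1r3c, 1.96 for Wsb1, -2.87 for Dbp and -3.41 for Otop1, a proton channel gene of the brown adipocyte list (limma adjusted p = 0.0359, 0.0359, 0.0305 and 0.0465). Over the alternative settings the adjusted p ran from 0.0276 to 0.158 for Ppp1r3c and Wsb1 from 0.0232 to 0.157 for Dbp and from 0.0333 to 0.158 for Otop1, which lost its call without any 1 of the 8 arrays. In Ppp1r3c and Otop1, KO was above WT in set 1 and below it in set 2, and in Wsb1 the reverse, with no overlap of the genotypes in either set. Dbp differed by 0.28 in set 1 and -2.59 in set 2, also without overlap.

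For P4ha1, KO replicate 2 read 7.09 and stood far below the other 3 KO arrays, which lay at 8.36 to 8.56. It was the 1 group with such a distant array among 66 groups of 4 arrays examined. Each such group joins the 2 sets, whose levels differ, so the usual chance rate of about 1 in 20 groups does not hold here. The P4ha1 difference in set 1, 0.20, was 0.90 without this array, -0.50 without KO replicate 1, 0.42 without WT replicate 1 and -0.02 without WT replicate 2.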

How the results depend on the processing

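No member passed the adjusted threshold under any alternative run, and the medians of the members kept within the spread between arrays. The Hilpda difference in set 2 ran from -0.44 to -0.36 when 1 array was left out. Counts over all genes moved more. In set 2 the 1 gene called became 14 with the filter on low values and 0 after quantile normalization, with the replicate block or with set 2 fitted alone, and 0 to 10 with 1 array left out. With 1 array left out, 0 to 14 genes were called in set 1 and 0 to 3 in the mean of the sets. For the difference between the sets the 142 genes became 4 with a trend in the variance, 365 with the filter, 82 with median centring, 3 with the replicate block and 0 to 23 with 1 array left out; the cause was not tested. An array left alone in its set and genotype was assumed to vary like the others. Deviations from group means correlated over genes at 0.471 to 0.702 between same-numbered arrays. Those from the mean of each genotype within each set correlated at 0.108 in set 1 and -0.0916 in set 2. With 2 arrays to a mean, both replicate numbers of a set give the same value. A pairing by number was thus not shown beyond the sets. Signal limits Car9, Car12, Stc2, Hif3a, Ak4 and Slc16a3, which were above the floor on 2 arrays or fewer.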

Other observations

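A few genes outside the hypoxia lists had differences of opposite sign in the sets and are given because their values stood out. Dio2, the deiodinase that makes active thyroid hormone in brown fat, read 6.53 and 7.38 in KO and 12.01 and 11.15 in WT in set 1, and 14.39 and 12.01 in KO and 10.28 and 12.09 in WT in set 2. Nr4a1, an immediate early nuclear receptor, differed by -4.41 in set 1 and 4.48 in set 2. Cldn5, a tight junction protein of endothelium, differed by -0.72 and 2.13. None of these differences passed the adjusted threshold in limma in either set.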
